A study of Homo sapiens with 2 samples.

Results

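The genes described here encode the core of the cellular oxygen sensor. They are the HIF alpha subunits HIF1A, EPAS1 and HIF3A, the beta subunits ARNT and ARNT2, the prolyl hydroxylases EGLN1, EGLN2 and EGLN3, the asparaginyl hydroxylase HIF1AN, and VHL. They were chosen by name for these roles, with earlier results of these data known. The 17397 genes listed by NCBI Gene number include all 10. All 10 reached 1 FPKM (fragments per kilobase of transcript, scaled to the number of mapped fragments) in at least 1 library. The RNA-Seq consisted of 1 library from wild-type (WT) H1 cells and 1 library from MEIS2-/- H1 cells, both collected at day 4 of hematopoietic differentiation. H1 is a widely used, established human embryonic stem cell line. Cells of both genotypes received 50 ng/ml activin A with 40 ng/ml BMP4 for 2 days, followed by 40 ng/ml VEGF with 50 ng/ml bFGF for 2 days. The study's methods describe the mutant lines as single-cell colonies, picked after lentiviral delivery of Cas9 with a guide against MEIS2 and puromycin selection, and they do not say which clone was sequenced or whether the WT cells carried the vector. The oxygen level of the 2 cultures is not given in the sources used here.

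When oxygen is plentiful, the EGLN enzymes hydroxylate prolines of the HIF alpha proteins. VHL, the recognition subunit of a ubiquitin ligase, then binds the hydroxylated protein, which is degraded. When oxygen is short, the alpha subunit escapes, pairs with ARNT and switches on genes of glycolysis, angiogenesis and survival. EGLN1 and EGLN3 are themselves induced by HIF, which makes them feedback genes, whereas EGLN2 is not a typical target. HIF alpha is controlled mostly through the stability of its protein, which RNA-Seq does not measure. In the embryo, hemogenic endothelium and blood form in tissue of low oxygen.

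In MEIS2-/- cells the feedback hydroxylases EGLN1 and EGLN3 and the alpha subunit HIF3A were each more than 2-fold lower than in WT cells, and EPAS1 was 6.30-fold higher. The remaining 6 genes, among them HIF1A, ARNT, EGLN2 and VHL, differed by less than 2-fold. Thus 3 of 10 genes were at least 2-fold lower, against 7.97% of the 13075 genes that reached 1 FPKM in either library. At least 2-fold higher was 1 of 10, against 7.84% of all genes. At 1.5-fold the same 3 genes were lower, against 14.5% of all genes, and HIF1A joined EPAS1 as higher, against 18% of all genes. At 4-fold no member was lower, against 1.84% of all genes, and EPAS1 alone was higher, against 1.48%. Because the 10 genes were chosen with earlier results known, these shares are descriptions only. The median log2 fold change of the 10 genes was 0.14, close to the 0.12 over all genes compared. Each genotype has 1 library, so the differences have no replicate check and neither a test nor a p-value is given. Log2 fold changes are those of MEIS2-/- over WT after 0.1 FPKM was added to each value, which understates changes at low levels. FPKM tables give no read counts, so the depth is unknown and counting error could not be estimated. The targeted gene, MEIS2, was at 10.8 FPKM in the WT library and 3.44 FPKM in the MEIS2-/- library. The line was made by cutting the coding sequence, which need not remove the mRNA.

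**Figure D1:**
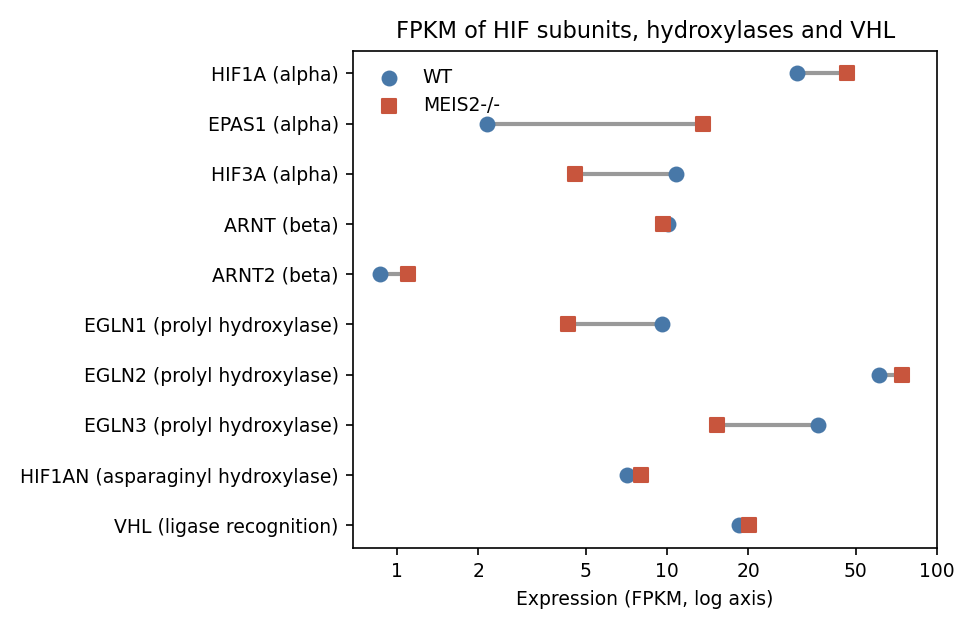
Expression of the 10 genes in FPKM on a log axis, with 1 circle for the WT library and 1 square for the MEIS2-/- library. The widest gap is that of EPAS1, from 2.16 to 13.6 FPKM, and the squares of HIF3A, EGLN1 and EGLN3 lie to the left of their circles. There are no error bars because each genotype has 1 library.

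The promoters of the genes past 2-fold, and that of EGLN2 as the paralog within 2-fold, are shown because HIF binds a short core motif, ACGTG or GCGTG, and EGLN1 and EGLN3 are known HIF targets. Each window runs from 250 bases before to 50 bases after the RefSeq start on GRCh38.p14 and is written 5′ to 3′ in the direction of transcription. The windows are chr1:231422238-231422537 on the minus strand for EGLN1, chr14:33951025-33951324 on the minus strand for EGLN3, chr19:40798941-40799240 on the plus strand for EGLN2, chr19:46296792-46297091 on the plus strand for HIF3A and chr2:46297157-46297456 on the plus strand for EPAS1. Capitals mark the core motif on either strand.
EGLN1: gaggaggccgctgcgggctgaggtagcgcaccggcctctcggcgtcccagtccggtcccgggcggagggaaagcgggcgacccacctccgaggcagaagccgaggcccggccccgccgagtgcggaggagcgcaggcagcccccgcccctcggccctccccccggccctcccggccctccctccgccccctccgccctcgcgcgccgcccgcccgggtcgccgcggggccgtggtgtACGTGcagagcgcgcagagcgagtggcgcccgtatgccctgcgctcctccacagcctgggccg
EGLN3: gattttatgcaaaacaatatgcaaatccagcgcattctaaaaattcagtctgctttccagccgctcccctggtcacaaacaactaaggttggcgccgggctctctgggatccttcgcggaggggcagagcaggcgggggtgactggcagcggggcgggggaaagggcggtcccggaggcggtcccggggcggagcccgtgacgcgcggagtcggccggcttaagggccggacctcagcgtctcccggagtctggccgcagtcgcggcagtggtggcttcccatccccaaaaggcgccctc
EGLN2: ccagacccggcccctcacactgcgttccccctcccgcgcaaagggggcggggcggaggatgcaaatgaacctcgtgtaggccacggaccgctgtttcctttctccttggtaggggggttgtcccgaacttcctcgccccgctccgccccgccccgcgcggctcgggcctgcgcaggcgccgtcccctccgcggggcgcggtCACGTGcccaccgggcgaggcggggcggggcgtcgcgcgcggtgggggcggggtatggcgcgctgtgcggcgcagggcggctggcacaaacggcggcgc
HIF3A: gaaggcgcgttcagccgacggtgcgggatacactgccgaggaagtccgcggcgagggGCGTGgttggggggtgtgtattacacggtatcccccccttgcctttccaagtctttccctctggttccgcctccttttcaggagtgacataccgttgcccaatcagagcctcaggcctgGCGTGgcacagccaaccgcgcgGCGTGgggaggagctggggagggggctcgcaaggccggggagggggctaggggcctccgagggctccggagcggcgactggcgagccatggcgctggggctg
EPAS1: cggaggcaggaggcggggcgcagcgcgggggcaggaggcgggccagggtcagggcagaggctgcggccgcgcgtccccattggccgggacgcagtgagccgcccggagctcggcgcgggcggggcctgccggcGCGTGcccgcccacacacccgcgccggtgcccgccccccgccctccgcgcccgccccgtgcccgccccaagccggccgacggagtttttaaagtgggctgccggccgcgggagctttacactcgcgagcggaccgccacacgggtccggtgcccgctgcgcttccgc

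The EGLN1 window holds 1 motif, ACGTG, from 13 to 9 bases before the start. The HIF3A window holds 3 motifs, each GCGTG on the strand of the gene, and they begin 193, 74 and 52 bases before the start. In the EGLN2 window the palindrome CACGTG gives a match on each strand, and these overlap. The EPAS1 window has 1 GCGTG, which begins 117 bases before the start, and the EGLN3 window has none. So the motif was present in windows of genes that were lower, higher and within 2-fold, and absent from the window of EGLN3. Sequence outside these windows was not searched, so the absence does not mean that EGLN3 lacks a HIF site. RefSeq windows were found for 8 of the 10 genes, and these 8 genes have 12 windows, of which 5 held the motif. For HIF3A and EGLN2 only the first window is shown, and their other windows held no motif. Of all 35116 promoter windows, 48.4% hold ACGTG or GCGTG on either strand and 21.4% hold ACGTG, so a match is common. A match is a description of the letters, and binding was not measured.

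**Figure D2:**
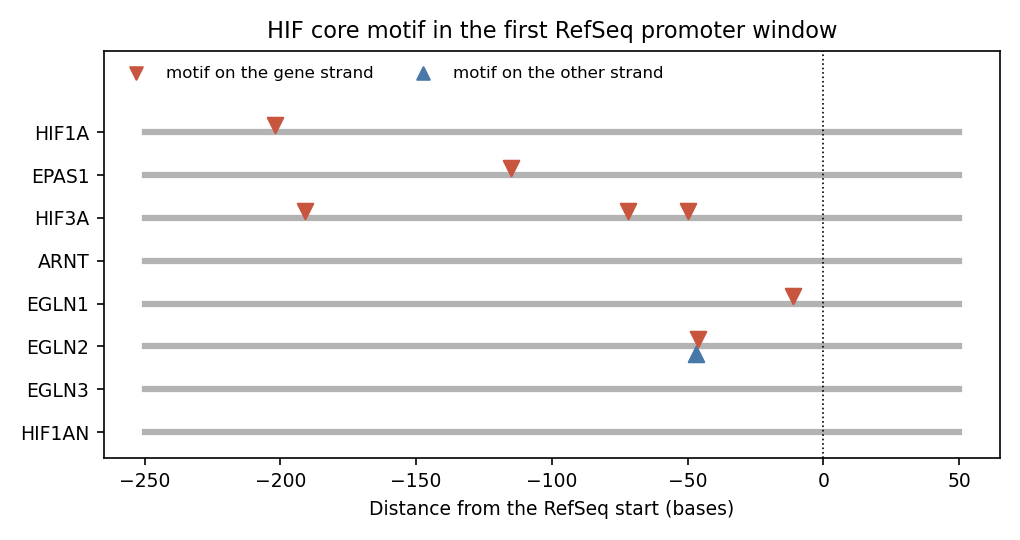
Position of the motif ACGTG or GCGTG in the first RefSeq promoter window of 8 genes, as the distance in bases from the start. Downward triangles mark the strand of the gene and upward triangles the other strand. HIF3A has 3 matches, EGLN1 has 1 close to the start, and ARNT, EGLN3 and HIF1AN have none.

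The alpha subunits differed from each other in direction. HIF1A, the broadly expressed subunit that drives many glycolysis genes, was at 30.3 FPKM in WT and 46.3 FPKM in MEIS2-/- cells (log2 fold change 0.61). It was 1.53-fold higher, below the 2-fold threshold. EPAS1, which encodes HIF-2 alpha and was first described in endothelium, was at 2.16 FPKM in WT and 13.6 FPKM in MEIS2-/- cells. Its log2 fold change of 2.60 was exceeded by 0.734% of the genes compared. HIF3A, which encodes several isoforms, some of them inhibitors of the other subunits, was at 10.8 FPKM in WT and 4.56 FPKM in MEIS2-/- cells (log2 fold change -1.23). A more negative log2 fold change was found in 5.77% of the genes compared, so the difference of HIF3A lay within the range of many other genes. The deposited value of HIF3A covers 4 RefSeq transcripts together, and its isoforms cannot be separated.

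Because FPKM is scaled per length, the levels of different genes can be set side by side, and their shares do not depend on the scaling of a library. HIF1A made up 70.0% of the summed FPKM of the alpha subunits in WT cells and 71.8% in MEIS2-/- cells. The share of HIF3A was 25.0% in WT cells and 7.07% in MEIS2-/- cells, while that of EPAS1 was 4.99% in WT cells and 21.1% in MEIS2-/- cells. The second most abundant alpha transcript was thus HIF3A in the WT library and EPAS1 in the MEIS2-/- library. HIF1A FPKM was 14.0 times that of EPAS1 in WT cells and 3.41 times in MEIS2-/- cells. The summed level of the alpha subunits was 43.3 FPKM in WT and 64.5 FPKM in MEIS2-/- cells.

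The beta subunits showed little difference. ARNT, the constitutive partner of the alpha subunits, was at 10.1 FPKM in WT and 9.63 FPKM in MEIS2-/- cells (log2 fold change -0.06). ARNT2, best known from neural tissue, was the lowest of the 10 genes in each library, at 0.86 FPKM in WT and 1.10 FPKM in MEIS2-/- cells. ARNT supplied 92.1% of the beta FPKM in WT cells and 89.7% in MEIS2-/- cells. The ratio of summed alpha to summed beta FPKM was 3.96 in WT cells and 6.01 in MEIS2-/- cells.

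Among the prolyl hydroxylases, the feedback genes EGLN1 and EGLN3 were lower and EGLN2 was not. EGLN1 encodes PHD2, the main enzyme that marks HIF alpha for degradation in well oxygenated cells. It was at 9.55 FPKM in WT and 4.30 FPKM in MEIS2-/- cells (log2 fold change -1.13). EGLN3 encodes PHD3 and is among the most strongly hypoxia-inducible of these genes. Its level was 36.3 FPKM in WT and 15.3 FPKM in MEIS2-/- cells (log2 fold change -1.24). EGLN1 kept 45.0% of its WT level and EGLN3 kept 42.3%, so the ratio of EGLN3 to EGLN1 was similar, at 3.80 in WT cells and 3.57 in MEIS2-/- cells. Of all genes compared, 6.57% had a more negative log2 fold change than EGLN1 and 5.65% than EGLN3. EGLN1 lay close to the 2-fold threshold, and with a pseudocount of 1 FPKM its log2 fold change was -0.99.

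EGLN2, which encodes PHD1, was the highest of the 10 genes in each library, at 61.1 FPKM in WT and 74.1 FPKM in MEIS2-/- cells. Its log2 fold change was 0.28. EGLN2 therefore made up 57.1% of the summed EGLN FPKM in WT cells and 79.0% in MEIS2-/- cells. The share of EGLN3 was 33.9% in WT cells and 16.4% in MEIS2-/- cells, and that of EGLN1 was 8.93% and 4.59%. The summed EGLN level was 107 FPKM in WT and 93.8 FPKM in MEIS2-/- cells, so the composition of the pool differed more than its total. In GENCODE 29, 30.6% of the exon bases of EGLN2 also belong to the read-through gene RAB4B-EGLN2. That gene was not among the listed genes matched to a symbol, so its reads, if any, cannot be separated from EGLN2.

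The other hydroxylase and the ligase subunit were nearly level. HIF1AN, also called FIH, hydroxylates an asparagine of HIF alpha and thereby blocks binding of the coactivators EP300 and CREBBP. It was at 7.10 FPKM in WT and 7.99 FPKM in MEIS2-/- cells (log2 fold change 0.17). VHL was at 18.5 FPKM in WT and 20.1 FPKM in MEIS2-/- cells, and its log2 fold change of 0.12 was close to the median of all genes. VHLL, a copy of VHL, was at 0.08 FPKM in WT cells and listed at 0 in MEIS2-/- cells. Set beside the rest, EGLN1 and EGLN3 had a mean log2 fold change of -1.18, and the other 8 genes had a median of 0.22. EGLN1 and EGLN3 were set apart with results known, so this contrast is a description. HIF3A lay beside EGLN1 and EGLN3, and EPAS1 lay apart on the other side.

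The order of the levels also differed. In WT cells, EGLN2, EGLN3 and HIF1A were the highest of the 10 genes, followed by VHL, HIF3A, ARNT, EGLN1, HIF1AN, EPAS1 and ARNT2. In MEIS2-/- cells the order was EGLN2, HIF1A, VHL, EGLN3, EPAS1, ARNT, HIF1AN, HIF3A, EGLN1 and ARNT2. Without replicates, it is not known which neighbours in these orders differ beyond the spread between cultures. The sum of HIF1A and EPAS1 was 0.304 times the summed EGLN FPKM in WT cells and 0.639 times in MEIS2-/- cells. Against EGLN1 and EGLN3 alone it was 0.708 times in WT cells and 3.05 times in MEIS2-/- cells. Both ratios leave out HIF3A, which was lower, and the last also leaves out EGLN2, which was higher. These choices were made with results known and enlarge the difference, so the ratios are descriptions of RNA levels only.

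All 9 partners of VHL in its ubiquitin ligase were within 2-fold, and their median log2 fold change was 0.03. The shares over all genes compared were 7.97% at least 2-fold lower and 7.84% higher, so a list of 9 without such genes is not set apart. The elongins ELOB and ELOC, which bridge VHL to the cullin, had log2 fold changes of 0.33 and 0.01. The cullin scaffold CUL2 was at 7.13 FPKM in WT and 6.63 FPKM in MEIS2-/- cells. RBX1, the RING subunit, had a log2 fold change of 0.03, and NEDD8, the modifier that activates cullins, had 0.12. The lowest of the 9 was UBE2M, the conjugating enzyme for NEDD8, with -0.28, and the highest was UBE2D1, a ubiquitin conjugating enzyme, with 0.55. The other ubiquitin conjugating enzymes, UBE2D2 and UBE2D3, had -0.13 and 0.04.

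Of 16 coactivators and modulators of HIF alpha stability, 1 was at least 2-fold lower and 1 at least 2-fold higher. Those counts are near the 7.97% lower and 7.84% higher over all genes compared. The median log2 fold change of the 16 was 0.24. The lower gene was CITED2, a hypoxia-inducible protein that competes with HIF alpha for its coactivators, at 341 FPKM in WT and 141 FPKM in MEIS2-/- cells. The higher gene was the coactivator CREBBP, at 6.86 FPKM in WT and 15.0 FPKM in MEIS2-/- cells. SIAH2, a ubiquitin ligase that targets EGLN proteins and is itself hypoxia-inducible, was at 31.6 FPKM in WT and 18.1 FPKM in MEIS2-/- cells, within 2-fold. CITED4, a relative of CITED2, had a log2 fold change of -0.58. HSP90AA1, a chaperone of HIF alpha, had 0.57, and CITED1 had 0.67 at levels of 0.93 and 1.54 FPKM.

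Most genes known as HIF targets were lower in MEIS2-/- cells. The target lists were written with earlier results of these 2 libraries known, so their direction is no independent evidence. Of 21 genes of glycolysis and glucose uptake, all 21 had lower FPKM in the MEIS2-/- library, 14 of them by 2-fold or more, with a median log2 fold change of -1.12. SLC16A3, the lactate exporter, was at 539 FPKM in WT and 55.5 FPKM in MEIS2-/- cells. The aldolase ALDOC had a log2 fold change of -2.73 and PFKFB4, which makes the activator of phosphofructokinase, had -2.55. Of 29 other HIF targets at 1 FPKM or more, 19 were at least 2-fold lower and 2 at least 2-fold higher, with a median of -1.46. Over all genes compared, 7.97% were at least 2-fold lower and 7.84% higher, and the median was 0.12. ANKRD37, a direct HIF target, was at 33.7 FPKM in WT and 0.76 FPKM in MEIS2-/- cells. FAM162A had a log2 fold change of -3.58, and the repressor BHLHE41 had -3.90 at levels of 2.44 and 0.07 FPKM. Of the 19 other targets at least 2-fold lower, 2 were below 1 FPKM in MEIS2-/- cells, and 18 remained with a filter at 5 FPKM.

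Not all targets were lower. EDN1, which encodes endothelin, was at 1.79 FPKM in WT and 13.3 FPKM in MEIS2-/- cells, HMOX1, heme oxygenase, had a log2 fold change of 0.78, and CA12, a carbonic anhydrase, had 1.03 at levels of 0.92 and 1.99 FPKM. CA12 entered only through the MEIS2-/- library, and 1 target rather than 2 was at least 2-fold higher with a pseudocount of 1 FPKM, a filter at 5 FPKM or either rescaling. VEGFA, the angiogenic ligand, had a log2 fold change of -1.40. Among the 50 target genes compared, 27 had a more negative log2 fold change than EGLN1 and 25 than EGLN3. EGLN1, EGLN3 and HIF3A stood near the middle of these target lists, whose pooled median was -1.29. HIF1A and ARNT were within 2-fold, and EPAS1 was higher, with a log2 fold change of 2.60. Since members and target lists were chosen with earlier results known, this placement is a description, and its cause was not tested.

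**Figure D3:**
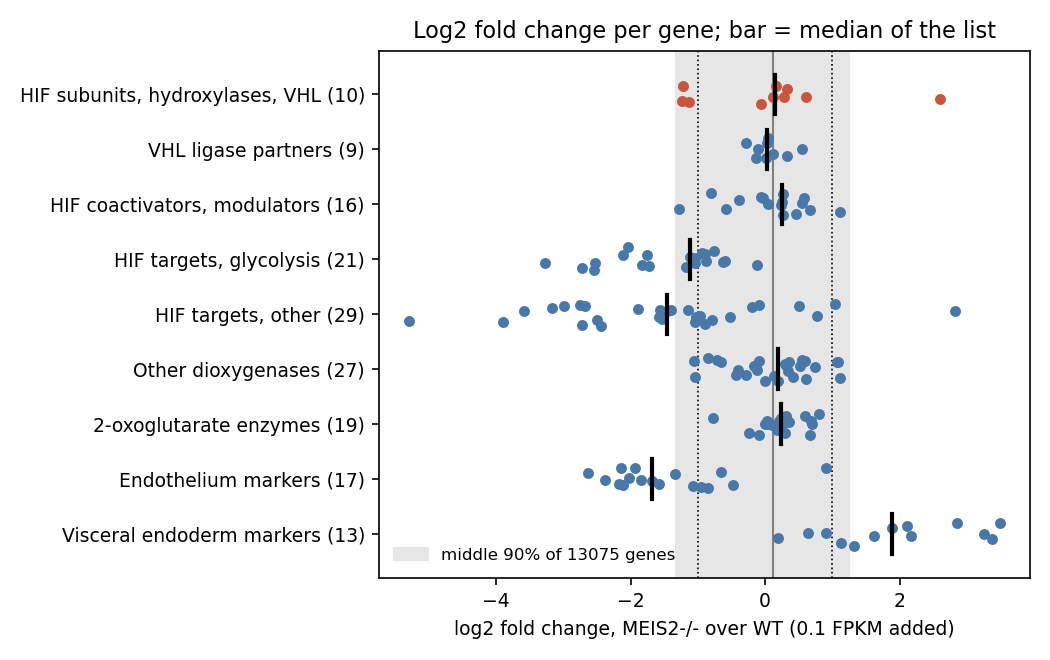
Log2 fold change of MEIS2-/- over WT for each gene (points) in the oxygen sensor and in related lists, with the number of genes compared in parentheses. Black bars are list medians, dotted lines mark 2-fold, the grey line is the median of all genes and the shaded band holds the middle 90% of 13075 genes. EPAS1 is the 1 red point to the right of the band, and the bars of both HIF target lists lie to the left of the dotted line at 2-fold lower.

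Other oxygen-using dioxygenases held few genes past 2-fold. Of 27 dioxygenases at 1 FPKM or more, 2 were at least 2-fold lower and 3 at least 2-fold higher, with a median of 0.19. Over all genes compared, 7.97% were at least 2-fold lower and 7.84% higher, so counts this small do not set the list apart. Most of the 27 are JmjC proteins that use 2-oxoglutarate as the EGLN enzymes do. The lower genes were KDM3A, a demethylase and known HIF target, at 17.1 FPKM in WT and 8.24 FPKM in MEIS2-/- cells, and KDM6B, with a log2 fold change of -1.05. The higher genes were JMJD4, KDM8 and the cysteine dioxygenase CDO1, which does not use 2-oxoglutarate, with log2 fold changes of 1.11, 1.09 and 1.07, and none of the 3 passed 2-fold after the libraries were rescaled to the same median. JMJD6 had -0.85. P4HTM, a membrane-bound prolyl hydroxylase that can act on HIF alpha, was at 12.4 FPKM in WT and 7.8 FPKM in MEIS2-/- cells. Of 19 enzymes that make or use 2-oxoglutarate, succinate or fumarate, metabolites that feed or inhibit the EGLN enzymes, none passed 2-fold. Their median was 0.23, and 16 of the 19 were higher. The median over all genes compared was also positive, at 0.12. OGDH had the highest log2 fold change, 0.80, followed by IDH1 with 0.69 and IDH3A with 0.68.

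Markers of several cell types differed between the libraries together with these genes. In bulk RNA, fewer cells of a type and less RNA per cell cannot be told apart. The marker lists were chosen with earlier results of these data known, so their counts are descriptions. For comparison with each list, 7.97% of all genes compared were at least 2-fold lower and 7.84% higher. Of 20 endothelium markers, 17 reached 1 FPKM and 12 were at least 2-fold lower. The summed level of the 20 was 1138 FPKM in WT and 511 FPKM in MEIS2-/- cells. Among the 17, 1 was higher, SOX17, at 141 FPKM in WT and 264 FPKM in MEIS2-/- cells. SOX17 is also in the visceral endoderm list. KDR, the VEGF receptor, was at 324 FPKM in WT and 62.0 FPKM in MEIS2-/- cells, while EPAS1 was higher. Each of the 13 visceral endoderm markers was higher and 10 passed 2-fold, but 6 of these 10 were below 1 FPKM in WT cells and so entered only through the MEIS2-/- library. With a filter at 5 FPKM, 5 markers passed 2-fold. The summed level of all 13 visceral endoderm markers was 617 FPKM in WT and 1316 FPKM in MEIS2-/- cells, or 216 and 437 FPKM without APOA1. Of 12 trophectoderm and amnion markers, 10 reached 1 FPKM, 6 were at least 2-fold higher and 1 at least 2-fold lower, and 2 of the 6 were below 1 FPKM in WT cells. The sums were 1642 and 1011 FPKM, or 442 and 472 FPKM without KRT18. CGA was listed at 0 in MEIS2-/- cells. Of 12 pluripotency markers, 9 reached 1 FPKM and 5 were at least 2-fold higher, with sums of 665 and 1977 FPKM. Without POU5F1 the sums were 380 and 523 FPKM, DNMT3B had a log2 fold change of -0.76, and SOX2 was below 1 FPKM in each library. Of 12 mesenchyme markers, 6 were at least 2-fold lower and 2 were higher by less than 2-fold. The sums were 3922 and 1412 FPKM, or 874 and 397 FPKM without VIM. Of the 6, 2 were below 1 FPKM in MEIS2-/- cells, and 4 remained with a filter at 5 FPKM. The part of these cell types in the values of EPAS1, HIF3A, EGLN1 and EGLN3 was not tested.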

How the data were processed

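RNA-Seq of H1-derived cells was compared between 1 WT and 1 MEIS2-/- library, grouped by the genotype in the sample labels. The library kit was Illumina TruSeq RNA with 3 ug of total RNA, which does not mark strand. The values deposited by the authors are FPKM with 2 decimals, 1 table per library. The submitters' processing notes name BWA, Bowtie, RSEM and hg19, without role or version. Low values of genes with 1 transcript (1001 and 1058 genes at 0.1 to 0.5 FPKM) did not fall on whole-read steps (agreement 0.11 in each library, where 1 is complete), so no count test was run. NCBI Gene numbers were matched to RefSeq symbols for 17365 of 17397 genes, and those that reached 1 FPKM in either library (75.2%) were compared. Antisense transcripts share 2.27% of the exon bases of HIF1A and 3.31% of those of HIF3A in GENCODE 29. The protein-coding gene NDUFB8, on the opposite strand, shares 2.33% of those of HIF1AN.

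The members and lists were chosen with earlier results of these data known. Named genes are the 10 members, the partners of VHL, MEIS2, the 3 largest falls and rises per list, and VEGFA, KDM3A, P4HTM and KDR. ELOC, RBX1, UBE2D3, EP300, SOX2, CGA and VHLL are named in addition to describe a list or a copy. Alternatives were other pseudocounts, filters, thresholds and scalings. Protein sequences were not analysed here. The computation was run on WT values with 4-fold changes planted, without noise, in genes at 5 FPKM or more. That checks the arithmetic only and says nothing about the spread between cultures. Python 3.11.15, numpy 2.4.6, pandas 2.3.3 and matplotlib 3.10.9 were used.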

Additional observations from a re-analysis of the deposited data

How the results depend on the processing

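Of 59 log2 fold changes of the 10 genes under other pseudocounts, filters and scalings, 57 kept their direction and their side of the 2-fold threshold. A filter leaves the value of a gene as it is, so the values under other filters could not differ. Only those under other pseudocounts and scalings could. EGLN1 had -0.99 with a pseudocount of 1 FPKM, which left 2 of the 10 genes at least 2-fold lower. VHL became -0.00014 when the median log2 ratio of all genes was set to 0, since its value lies close to the median. Over these settings EPAS1 ran from 2.21 to 2.65, EGLN3 from -1.35 to -1.19 and HIF3A from -1.34 to -1.09. At 1.5-fold, HIF1A joined EPAS1, so 2 genes were higher, against 18% of all genes. At 4-fold, 0 of the 10 genes, 6 of the glycolysis targets and 10 of the other HIF targets were lower, against 1.84% of all genes. Over all genes, 1042 were at least 2-fold lower and 1025 higher. These counts became 693 and 623 with a pseudocount of 1 FPKM, 598 and 554 with a filter at 5 FPKM, 1890 and 2353 at 1.5-fold, and 241 and 194 at 4-fold, and 1516 and 1567 without a filter. Scaling changed their balance, to 1202 lower and 826 higher with the median log2 ratio set to 0, and 1179 and 853 with TMM. No paired analysis was possible because each genotype has 1 library. With no read counts and no second culture, neither counting error nor the spread between cultures is known.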

Other observations

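Other genes of the bHLH-PAS family, to which the HIF subunits belong, were mostly low. Of 16 such genes in the tables, 8 reached 1 FPKM, and their median log2 fold change was 0.07. NPAS1, a neuronal repressor, was at 15.9 FPKM in WT and 4.44 FPKM in MEIS2-/- cells (log2 fold change -1.82). PER1, a clock gene, had -0.94. The coactivator NCOA2 was at 2.15 FPKM in WT and 5.86 FPKM in MEIS2-/- cells (log2 fold change 1.41), and AHR, the dioxin receptor that also pairs with ARNT, had 0.80 at levels of 1.23 and 2.21 FPKM. NCOA3, a related coactivator, had 0.30.

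Of 15 reference genes of broad expression, none was 2-fold lower or higher, against 7.97% lower and 7.84% higher over all genes compared. Their median was 0.11. The range ran from -0.79 for the transferrin receptor TFRC, itself a known HIF target, to 0.65 for ACTB. Of 10 neuroectoderm markers, 3 reached 1 FPKM and all 3 were lower. NCAM1 had a log2 fold change of -1.80, OTX2 had -1.76 and NES had -0.49.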
